A study of Mus musculus with 4 samples.

Results

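Keratins and claudins are the intermediate filament proteins and the tight junction proteins of epithelia, and the expression of their genes was compared between the dorsal and ventral parts of the mouse foregut tube. All genes of either family with a numbered symbol, as the array annotation gives it, were included, provided that a probe set carried that symbol alone. These were 64 genes, 44 for keratins and 20 for claudins, represented by 85 probe sets, of 18194 genes in all. For 50 of them there was 1 probe set, and for the other 14 the probe set whose mean over all arrays was highest represents the gene.

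The tissue came from E9.75 embryos of the BALB/c strain and was their tracheoesophageal anlage, a single tube whose ventral wall begins to swell into the lung bud, and the strain and stage were shared by both groups. The tube was cut by hand under a microscope into the dorsal part (dorsal replicates 1 and 2) and the ventral part (ventral replicates 1 and 2), with 1 Affymetrix array for each. No treatment or mutation was involved, and the labels do not say how many embryos were pooled or whether the replicates came from separate litters, so the p-values below reflect nothing but the spread among these 4 arrays. Each sample held epithelium and mesenchyme together, and in such bulk tissue fewer cells of a type and less RNA per cell cannot be told apart.

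Keratin filaments are built from pairs of a type I and a type II protein. They are anchored at desmosomes and give epithelial cells mechanical strength, and the expressed pair depends on the tissue: *Krt8* and *Krt18* are typical of simple epithelia, *Krt5* and *Krt14* of the basal layer of stratified epithelia, and a large group of the hair and its root sheath. Claudins are membrane proteins that form the strands of tight junctions and determine which ions pass between cells. At this stage the foregut is lined by a simple epithelium, while the stratified lining of the esophagus and the pseudostratified lining of the trachea form later.

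Values were deposited as RMA values on a log2 scale, 1 per probe set and array, and differences are dorsal minus ventral on that scale. A gene was tested with limma when 2 or more of the 4 arrays had it above their 40th percentile. This percentile, which was 4.73 on both dorsal arrays, 4.69 on ventral replicate 1 and 4.82 on ventral replicate 2, is a rank among probe sets and not a detection call. Over all genes 13139 were tested, and 8.88% of them passed the test at an adjusted p under 0.05, 4.79% with higher values in the dorsal part and 4.09% with higher values in the ventral part. With 2 arrays a part the smallest two-sided p of an exact permutation test is 0.333, so calls rest on the spread that limma shares over genes. Between replicates the median absolute difference was 0.0764 for the dorsal part and 0.265 for the ventral part. Poly-A control RNAs, which are added before labelling, averaged 7.58 and 9.76 on dorsal replicates 1 and 2 and 7.82 and 9.66 on ventral replicates 1 and 2. Differences within each replicate number are therefore given beside the main results.

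RefSeq promoter windows of the mouse assembly GRCm38.p6, each 300 bases long from 250 before to 50 after an annotated start, were matched by gene identifier for 47 of the 64 genes, with 56 windows. Short motifs were searched on both strands. The TATA box TATAAA occurred in 17 of 32 keratin windows (53.1%) and in 1 of 24 claudin windows (4.17%), against 13.6% of the 32851 windows of all genes. In 12 of the keratin windows it lay between 40 and 16 bases before the start. The GC box GGGCGG showed the opposite distribution, with 2 keratin windows (6.25%) and 13 claudin windows (54.2%), against 35.7% of all windows. Matches to the letters CAAGTG, which NKX2 factors can bind, were present in 6 claudin windows (25%) and in 3 keratin windows (9.38%), against 13.6% of all windows. The grainyhead-like motif AACNGGTT (2.09% of all windows) occurred upstream of *Cldn5* alone among the 47 genes, the forkhead motif TGTTTAC (3.65%) in none, and the SOX motif ACAATG (12.6%) in 6 windows. These are matches of letters in windows that overlap where a gene has close starts, and they show no binding. None of the motifs overlapped another in the sequences shown.

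The sequences of 4 claudin genes that differed between the parts and of 1 keratin gene with a TATA box are given below as examples. They run from 250 bases before to 15 after the start, 5′ to 3′ on the strand of the gene, from RefSeq (GRCm38.p6). No window was matched for *Cldn8*, *Cldn9* and *Krt15*, which also differed between the parts. Capitals mark the GC box or its complement in *Cldn11* (chr3:31149670-31149934, plus strand) and *Cldn4* (chr5:134946920-134947184, minus strand), both a GC box and an NKX2 match in *Cldn7* (chr11:69965171-69965435, plus strand), an NKX2 match in *Cldn18* (chr9:99710049-99710313, minus strand) and the TATA box in *Krt20* (chr11:99438139-99438403, minus strand). For *Cldn7* and *Cldn18* the window of a second annotated start held none of the searched motifs.
Cldn11: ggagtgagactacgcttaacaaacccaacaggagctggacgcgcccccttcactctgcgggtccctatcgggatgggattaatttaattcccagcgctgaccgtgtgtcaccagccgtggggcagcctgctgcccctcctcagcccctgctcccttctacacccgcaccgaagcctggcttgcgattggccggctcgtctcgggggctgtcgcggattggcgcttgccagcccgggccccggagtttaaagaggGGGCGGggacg
Cldn4: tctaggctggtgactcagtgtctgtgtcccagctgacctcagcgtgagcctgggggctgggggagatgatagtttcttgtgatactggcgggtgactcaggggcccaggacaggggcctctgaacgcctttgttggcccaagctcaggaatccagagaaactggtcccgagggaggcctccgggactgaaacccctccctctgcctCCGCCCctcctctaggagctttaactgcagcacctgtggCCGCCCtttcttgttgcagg
Cldn7: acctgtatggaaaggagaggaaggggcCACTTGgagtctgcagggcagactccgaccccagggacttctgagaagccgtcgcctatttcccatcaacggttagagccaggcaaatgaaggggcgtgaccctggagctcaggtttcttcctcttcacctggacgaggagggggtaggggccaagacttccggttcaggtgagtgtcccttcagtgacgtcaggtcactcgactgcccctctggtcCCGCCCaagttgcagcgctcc
Cldn18: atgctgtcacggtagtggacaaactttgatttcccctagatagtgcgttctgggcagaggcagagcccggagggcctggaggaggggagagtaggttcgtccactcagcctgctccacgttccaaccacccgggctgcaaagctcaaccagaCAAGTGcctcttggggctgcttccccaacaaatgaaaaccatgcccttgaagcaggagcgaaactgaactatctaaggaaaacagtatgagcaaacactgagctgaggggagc
Krt20: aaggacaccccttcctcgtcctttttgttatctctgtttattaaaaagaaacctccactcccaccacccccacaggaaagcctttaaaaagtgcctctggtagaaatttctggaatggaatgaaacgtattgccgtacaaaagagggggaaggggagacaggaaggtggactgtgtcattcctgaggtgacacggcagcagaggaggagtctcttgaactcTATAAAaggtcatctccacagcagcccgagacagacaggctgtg

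Of the 64 genes, 31 lay above the 40th percentile on all 4 arrays (48.4%, against 68.5% of all genes). They were 20 keratin and 11 claudin genes. On no array did 27 genes exceed it (21 keratin and 6 claudin genes), against 25.3% of all genes. The other 6 exceeded it on some arrays, with *Krt77* on 3, *Cldn11*, *Cldn14* and *Cldn18* on 2, and *Krt23* and *Krt84* on 1. The split moves with the chosen percentile, and 16 genes exceeded the 30th percentile on no array and 20 exceeded the 50th on all arrays. *Krt23*, *Krt84* and the 27 genes under the 40th percentile were not tested, so 35 of the 64 genes were.

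**Figure D1:**
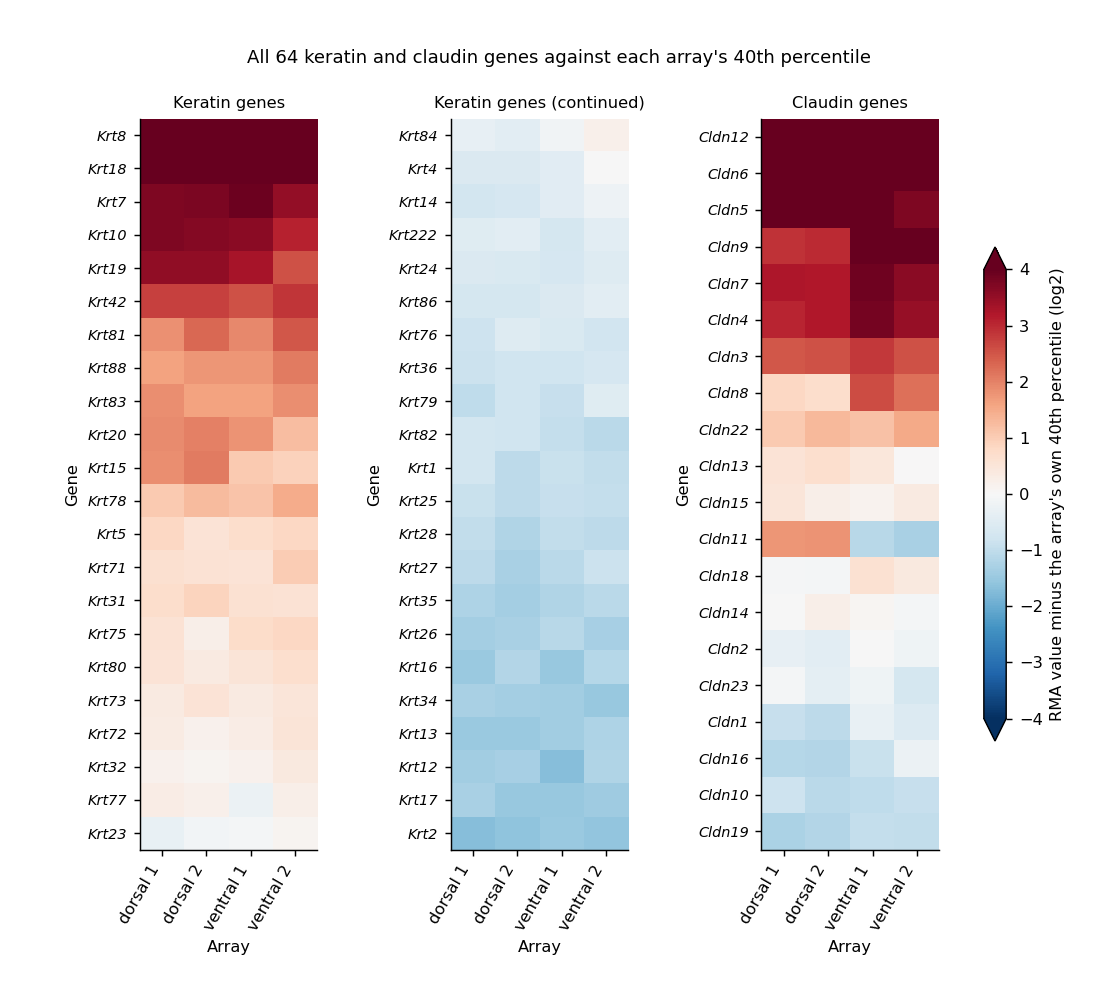
RMA value minus the 40th percentile of the same array (log2, colour scale) for all 64 keratin and claudin genes, 1 row per gene and 1 column per array. Genes in red lay above the percentile and genes in blue under it, with 31 genes above it on all 4 arrays and 27 on none.

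Keratins of simple epithelia were the group whose members lay above the 40th percentile most often. Of its 6 genes, *Krt7*, *Krt8*, *Krt18*, *Krt19* and *Krt20* did so on all 4 arrays, while *Krt23* did so on ventral replicate 2 alone. Of 17 keratins of stratified epithelia with a probe set, 5 were above the percentile on all arrays and 11 on none, and of 18 keratins of hair and its root sheath these counts were 8 and 9.

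The stratified keratins under the 40th percentile on every array were *Krt1*, *Krt2*, *Krt4*, *Krt12*, *Krt13*, *Krt14*, *Krt16*, *Krt17*, *Krt24*, *Krt76* and *Krt79*. They include *Krt4* and *Krt13*, the pair of the upper layers of the mature esophagus. *Krt14*, the basal partner of *Krt5*, had values of 4.001 and 4.06 dorsally, against 4.25 and 4.62 ventrally. Both dorsal values were lower than both ventral ones, by 0.40 on average, but all 4 were low and no test was made. Its other probe sets differed by -0.30 and -0.07, and the groups overlapped for the latter. The untested hair keratins were *Krt25*, *Krt26*, *Krt27*, *Krt28*, *Krt34*, *Krt35*, *Krt36*, *Krt82*, *Krt84* and *Krt86*, and *Krt222* was also untested. The claudin genes under the percentile on every array were *Cldn1*, *Cldn2*, *Cldn10*, *Cldn16*, *Cldn19* and *Cldn23*. Over these 29 untested genes the values ran from 2.998 to 5.02, and the plain differences ran from -0.62 for *Cldn16* to 0.22 for *Krt82*. *Cldn16* had values of 3.58 and 3.57 dorsally, against 3.81 and 4.59 ventrally, so that its groups did not overlap, and without a filter its limma adjusted p was 0.170.

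*Cldn1*, a main claudin of the epidermal barrier, had values of 3.82 and 3.67 dorsally, against 4.41 and 4.26 ventrally. The groups did not overlap, at a difference of -0.59, but its 3 other probe sets gave differences of -0.04 to 0.20. Without a filter on low values its limma adjusted p was 0.0562.

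Between the parts, 7 of the 35 tested genes passed the test. *Cldn11* and *Krt15* were higher in the dorsal part, against a background of 4.79% of all tested genes. *Cldn4*, *Cldn7*, *Cldn8*, *Cldn9* and *Cldn18* were higher in the ventral part, against 4.09%. The remaining 28 did not pass, and 12 of the 35 genes had an unadjusted p under 0.05. By family, 6 of 14 tested claudin genes passed (42.9%) and 1 of 21 keratin genes (4.76%), against 8.88% of all tested genes. These shares are descriptions, since *Cldn11* and *Cldn18* entered the test only through the part in which they were high. The median difference was -0.21 for claudins and -0.09 for keratins, against 0.07 for all tested genes. Over both families it was -0.11, and it changed sign when ventral replicate 2 was left out (0.038).

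**Figure D2:**
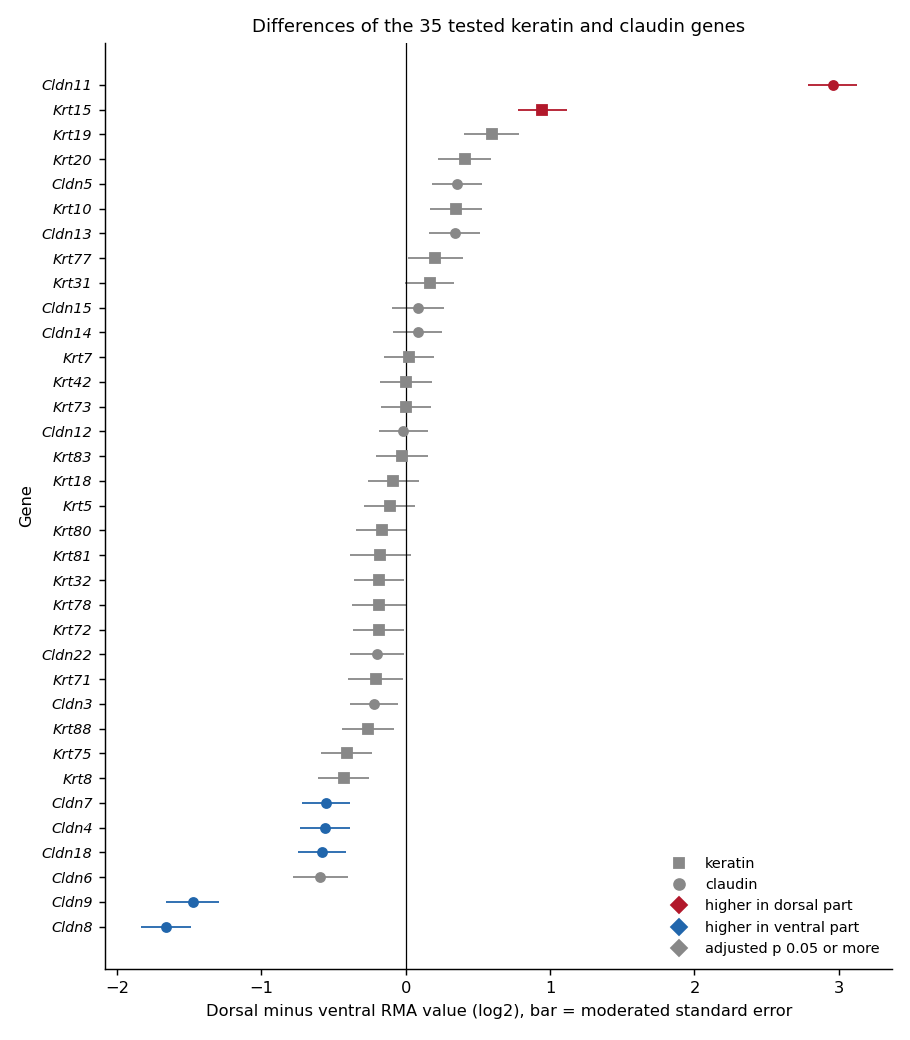
Dorsal minus ventral difference of the RMA value (log2, horizontal axis) of the 35 tested genes, with bars for the moderated standard error of limma (n = 2 arrays per part), squares for keratins and circles for claudins. Red points passed with higher dorsal values (*Cldn11* 2.96, *Krt15* 0.95), blue points passed with higher ventral values (-0.55 to -1.66), and grey points had an adjusted p of 0.05 or more.

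*Cldn11*, the claudin of central myelin and of the Sertoli cell barrier in the testis, had the largest difference of the family. Its values were 6.50 and 6.52 dorsally, against 3.59 and 3.52 ventrally. Both ventral values lay under the 40th percentile and both dorsal values above it. The difference was 2.96 ± 0.17 (standard error, limma adjusted p = 1.73e-11), 7.76-fold higher in the dorsal part, and it was 1.76 (3.38-fold) when set against the ventral 40th percentiles. Within replicate number 1 the difference was 2.91 and within number 2 it was 2.998. When a dorsal array was left out, *Cldn11* exceeded the percentile on 1 array only and was not tested.

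Genes of other cell types were higher on the same dorsal arrays. Of 6 tested mesothelial genes, *Bnc1* (3.60), *Wt1* (2.96), *Upk3b* (2.56) and *Lrrn4* (1.90) passed with higher dorsal values, and the median was 2.23. *Wt1* lay above the 40th percentile on the dorsal arrays alone (4.11 and 3.89 ventrally), so it entered the test only through the part in which it was high. *Msln*, a defining marker, was under the 40th percentile on every array. The log2 of the summed values of this list was 10.37 and 10.23 dorsally, against 8.34 and 7.97 ventrally. Of 8 mesenchymal genes, *Prrx1* (3.08), *Col1a1* (2.54), *Col1a2* (1.11) and *Pdgfrb* (0.60) were higher in the dorsal part and none in the ventral part, with a median of 0.54 and summed levels of 14.04 and 14.03 dorsally, against 13.64 and 13.36 ventrally. For 6 neural crest genes these counts were 5 and 1, with a median of 1.70 and summed levels of 11.18 and 11.24 dorsally, against 10.07 and 10.09 ventrally. Among these 5, *Foxd3* also entered the test only through the dorsal arrays. The part of these cell types in the difference of *Cldn11* was not tested.

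*Krt15*, a type I keratin of basal cells in stratified epithelia, was the only keratin gene that passed the test. Its values were 6.58 and 6.80 dorsally, against 5.73 and 5.75 ventrally, all above the 40th percentile and without overlap. The difference was 0.95 ± 0.17 (standard error, limma adjusted p = 4.43e-04), 1.93-fold higher in the dorsal part, with 0.85 within replicate number 1 and 1.04 within number 2. Without dorsal replicate 2 it was 0.84 and did not pass. *Krt15* kept its call in 14 of 15 alternatives, with a limma adjusted p of 0.00265 without a filter and 2.73e-06 at the lowest.

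*Krt19* lies next to *Krt15* among the protein-coding genes of the type I cluster, and encodes the small keratin without a tail domain that is found in simple epithelia and ducts. It had values of 8.28 and 8.28 dorsally, against 7.99 and 7.38 ventrally. The dorsal values were higher than both ventral ones, but the ventral arrays differed from each other by more than their nearer value differed from the dorsal ones. The difference of 0.59 ± 0.19 (standard error) did not pass the test (limma adjusted p = 0.0584). It was 0.29 within replicate number 1 and 0.90 within number 2. Under 8 of 15 alternatives it passed, again with the looser threshold included, and the difference was 0.90 without ventral replicate 1, where it passed, and 0.29 without ventral replicate 2. *Krt13*, the neighbour of *Krt15* on the other side, lay under the 40th percentile, with a plain difference of -0.18.

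Neither gene of the main pair of simple epithelia passed the test. *Krt8*, the type II partner, had values of 11.77 and 11.68 dorsally, against 12.33 and 11.98 ventrally. All ventral values were higher, and the 2 other probe sets of the gene had the same order, but the difference of -0.43 ± 0.18 (standard error) did not pass the test (limma adjusted p = 0.169). It passed without ventral replicate 2 (-0.61), with quantile normalization once more (-0.53) and with a trend in the variance (adjusted p = 0.0332). Over the alternatives its adjusted p lay between 0.0240 and 0.9999. *Krt18*, the type I partner, had values of 11.21 and 11.15 dorsally, against 11.44 and 11.09 ventrally. These overlapped, at a difference of -0.09 (adjusted p = 0.834).

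*Krt7*, a type II keratin of glandular and ductal epithelia, had values of 8.48 and 8.50 dorsally, against 8.61 and 8.33 ventrally, which overlapped at a difference of 0.02 (adjusted p = 0.963). *Krt20*, a keratin of the mature intestine and urothelium, had values of 6.61 and 6.75 dorsally, against 6.50 and 6.04 ventrally. The groups did not overlap, but the difference of 0.41 did not pass (adjusted p = 0.222).

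The keratins of stratified epithelia other than *Krt15* did not pass the test. *Krt5*, the type II keratin of basal cells, had values of 5.54 and 5.28 dorsally, against 5.41 and 5.64 ventrally, a difference of -0.11 (adjusted p = 0.777) with overlapping groups. *Krt10*, which replaces the basal keratins in differentiating epidermis, differed by 0.35 (adjusted p = 0.309). *Krt77* differed by 0.21, *Krt78* by -0.18 and *Krt80* by -0.17. *Trp63*, the transcription factor gene of basal cells, had values of 5.27 and 5.22 dorsally, against 6.28 and 5.79 ventrally, a difference of -0.79 (limma adjusted p = 0.00571), which is opposite in sign to that of *Krt15*.

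None of the 8 tested hair and root sheath keratins passed. *Krt75* differed by -0.41 (adjusted p = 0.1996), with the ventral arrays above the dorsal ones. The others lay between -0.21 and 0.17, namely *Krt71* (-0.21), *Krt72* (-0.19), *Krt32* (-0.18), *Krt81* (-0.18), *Krt83* (-0.03), *Krt73* (0.00) and *Krt31* (0.17). Outside these groups, *Krt88* differed by -0.26 and *Krt42* by 0.00. Ventral replicate 2 had the highest of the 4 values for 30 of the 44 keratin genes (68.2%), against 3 of 20 claudin genes (15%) and 28.4% of all genes. Among untested genes these shares were 17 of 23 keratin genes (73.9%), and 56.8% of all untested genes. The lower quartile of ventral replicate 2 was 4.04, against 3.89 to 3.90 on the other arrays. The part of this array in the keratin differences was not tested otherwise. Without ventral replicate 2 the median difference of all tested genes was 9.5e-05. For the tested keratin and claudin genes together the median was then 0.038, against -0.11 with all 4 arrays. Without ventral replicate 1 it was -0.22.

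**Figure D3:**
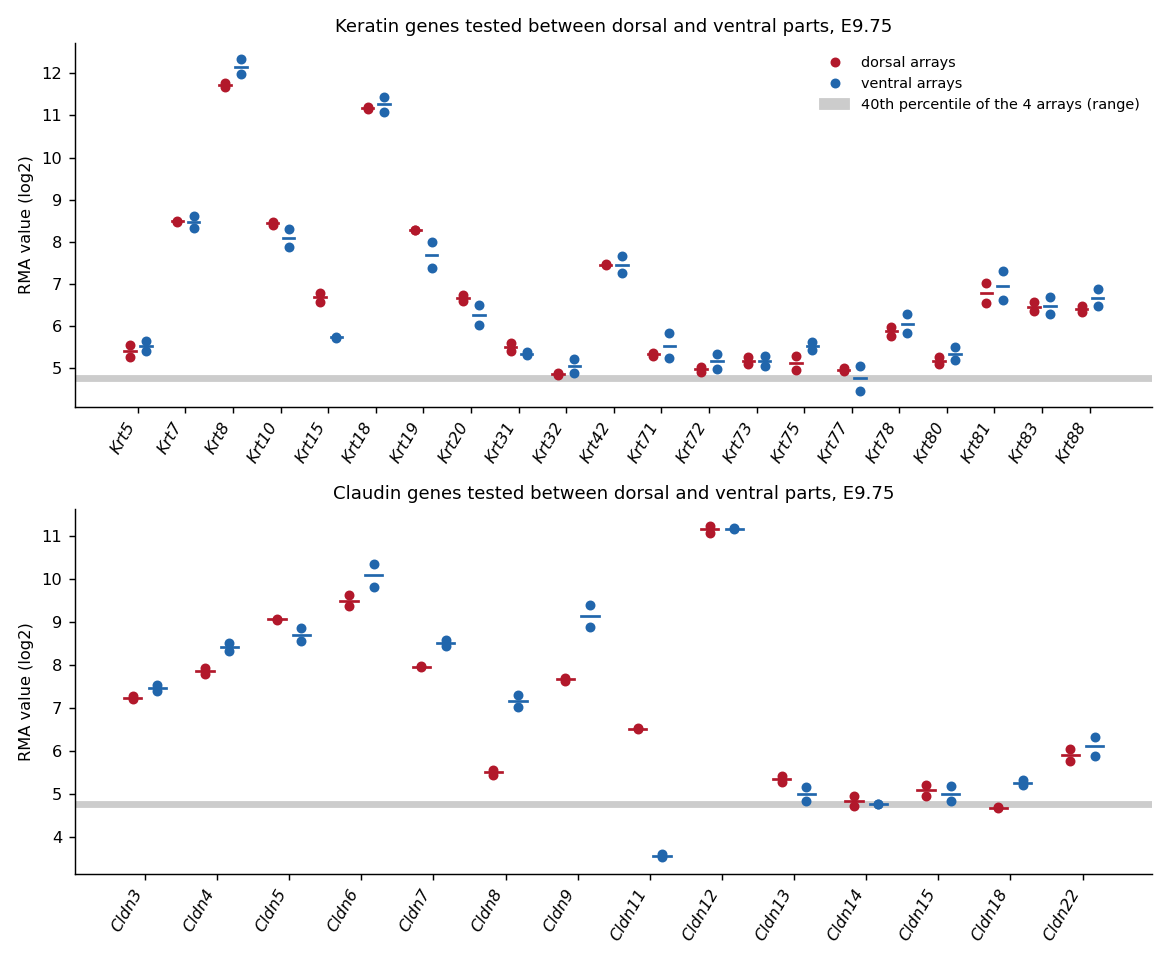
Tested keratin genes (upper panel) and claudin genes (lower panel) by RMA value (log2, vertical axis), with 1 point per array, a bar at the mean of 2 arrays, and dorsal arrays in red to the left of ventral arrays in blue. The grey band is the range of the 40th percentile over the arrays, under which both ventral values of *Cldn11* and both dorsal values of *Cldn18* lay.

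Among claudins higher in the ventral part, *Cldn8* and *Cldn9* had the largest differences. *Cldn8*, a barrier claudin of the kidney collecting duct, had values of 5.56 and 5.44 dorsally, against 7.31 and 7.01 ventrally. Every ventral value was higher, by more than the spread within either part, and the difference was -1.66 ± 0.17 (standard error, limma adjusted p = 3.37e-07), 3.16-fold higher ventrally. It was -1.74 within replicate number 1 and -1.57 within number 2.

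*Cldn9*, a claudin needed in the inner ear, had values of 7.62 and 7.70 dorsally, against 9.38 and 8.89 ventrally. The difference was -1.47 ± 0.18 (standard error, limma adjusted p = 4.47e-06), 2.78-fold higher ventrally, with -1.76 within replicate number 1 and -1.18 within number 2. A second probe set gave 5.69 and 5.61 dorsally, against 6.90 and 6.45 ventrally, in the same order. *Cldn8* and *Cldn9* passed the test under all 15 alternatives.

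*Cldn6*, the neighbour of *Cldn9* and a claudin of early embryonic epithelia, had values of 9.62 and 9.36 dorsally, against 10.35 and 9.81 ventrally. The groups did not overlap, but the arrays of each part were spread widely, and the difference of -0.59 ± 0.19 (standard error) did not pass (limma adjusted p = 0.0581). It passed under 8 of 15 alternatives, the looser threshold of 0.10 included. Without ventral replicate 1 it was -0.32, and without ventral replicate 2 it was -0.86 and passed.

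*Cldn4* and *Cldn7*, both common in simple epithelia, had similar differences. *Cldn4* had values of 7.79 and 7.92 dorsally, against 8.52 and 8.32 ventrally, a difference of -0.56 ± 0.17 (standard error, limma adjusted p = 0.0431). It was -0.73 within replicate number 1 and -0.39 within number 2. *Cldn7* had values of 7.96 and 7.95 dorsally, against 8.58 and 8.43 ventrally, a difference of -0.55 ± 0.17 (standard error, limma adjusted p = 0.0427), with -0.62 and -0.48 within numbers 1 and 2. The parts did not overlap for either gene, but neither passed without dorsal replicate 1 (-0.49 and -0.56), without dorsal replicate 2 (-0.63 and -0.55) or without a filter. *Cldn7* did not pass with equal array medians (-0.56) either.

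*Cldn18*, which is transcribed from separate starts in lung and stomach, had values of 4.69 and 4.66 dorsally, against 5.31 and 5.203 ventrally. The dorsal values lay just under the 40th percentile and the ventral values above it. The ventral values were low as well, under the medians of their arrays (5.42 and 5.47). The difference was -0.58 ± 0.17 (standard error, limma adjusted p = 0.0302), and -0.53 when set against the dorsal percentiles. It was -0.62 within replicate number 1 and -0.54 within number 2. A second probe set, under the percentile on every array, gave 4.21 and 4.22 dorsally, against 4.40 and 4.37 ventrally. *Cldn18* did not pass without dorsal replicate 1 (-0.60), without dorsal replicate 2 (-0.57), without a filter or with a trend in the variance.

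The other claudin genes did not pass the test. *Cldn3*, the neighbour of *Cldn4* and like it a receptor for a clostridial enterotoxin, had values of 7.20 and 7.26 dorsally, against 7.53 and 7.38 ventrally. The ventral values were higher, at -0.22 (adjusted p = 0.529), and its 3 other probe sets differed by -0.19 to -0.34. *Cldn5*, the claudin of endothelial tight junctions, had values of 9.06 and 9.05 dorsally, against 8.85 and 8.55 ventrally, a difference of 0.36 (adjusted p = 0.267). *Cldn12* differed by -0.02 (adjusted p = 0.971), and *Cldn13* (0.34), *Cldn14* (0.08), *Cldn15* (0.08) and *Cldn22* (-0.20) did not pass either. Of 14 tested endothelial genes, *Sox17* (0.98), which is also expressed in endoderm, was higher in the dorsal part and the other 13 did not pass. Without ventral replicate 1, 7 of the 14 were higher dorsally, among them *Cdh5* and *Cd34*, and *Cldn5* passed as well (0.51, adjusted p = 0.0155), against 35.1% of all genes. The endothelial summed level was 12.41 and 12.37 dorsally, against 12.52 and 12.20 ventrally, with *Cdh5* at 0.30 (adjusted p = 0.387) and *Pecam1* at -0.07 (adjusted p = 0.859).

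In all, the arrays of both parts did not overlap for 17 of the 35 tested genes. Dorsal values were above ventral ones for 8 of them, against 33.3% of all tested genes, and ventral values were above dorsal ones for 9, against 17.6%. For claudins these counts were 3 and 7 of 14, and for keratins 5 and 2 of 21.

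**Figure D4:**
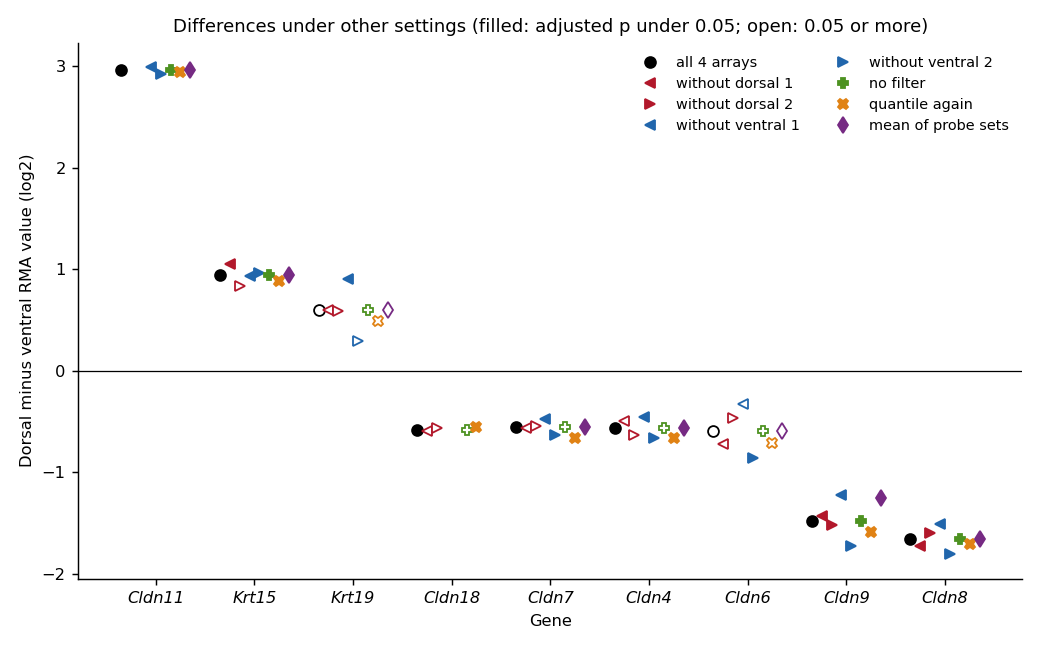
Dorsal minus ventral difference (log2, vertical axis) of 9 genes with all 4 arrays, without each array in turn and with other settings, filled where the adjusted p was under 0.05 and open otherwise. *Cldn8*, *Cldn9* and *Cldn11* stayed filled wherever they were tested, *Krt15* was open without dorsal replicate 2, and no difference changed sign. Settings in which a gene was not tested have no symbol.

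Of 18 tested genes of an epithelial list, 6 were higher in the ventral part, against 4.09% of all tested genes. None was higher in the dorsal part, against 4.79%, and 12 did not pass, with a median of -0.46. Those that passed were *Grhl2* (-0.77), *Ap1m2* (-0.67), *Prss8* (-0.64), *Foxa1* (-0.63), *Esrp2* (-0.58) and *Esrp1* (-0.56). With no filter 2 of the list passed, both higher in the ventral part, against 2.59% of all genes. No call of the list held without either dorsal array. With one array left out, the median of the list ran from -0.60 (without ventral replicate 2) to -0.38 (without ventral replicate 1). The cadherin gene *Cdh1* had values of 8.19 and 8.06 dorsally, against 8.76 and 8.55 ventrally, a difference of -0.53 (adjusted p = 0.0567), and *Epcam* differed by -0.31 (adjusted p = 0.343). *Cdh3* (0.17) and *Tmprss2* (0.14) had differences of the other sign and did not pass. *Ehf* and *Ovol1* were under the 40th percentile on every array. The summed level of the list was 12.70 and 12.69 dorsally, against 13.26 and 13.00 ventrally. The differences of *Cldn4*, *Cldn6*, *Cldn7* and *Cldn18*, from -0.55 to -0.59, lay within the range of this list, whose lowest value was -0.77, while those of *Cldn8* and *Cldn9* lay below it. The part of the epithelial share in the claudin differences was not tested. Heart muscle genes (8 of 8) and hepatic genes (3 of 6) were also higher in the ventral part, with medians of -3.70 and -0.82. Among the heart muscle genes, *Myh6* entered the test only through the ventral arrays.

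Genes whose proteins work with claudins did not share one direction. Of 25 tested tight junction genes, *Marveld3* (-0.82), *Marveld2* (-0.77), which encodes tricellulin, and *Cgn* (-0.62), which encodes cingulin, were higher in the ventral part. *Ildr2* (2.04), a gene of the angulin family of tricellular junctions, was higher in the dorsal part, with values of 8.93 and 9.16 dorsally, against 6.96 and 7.05 ventrally. The other 21 did not pass, among them occludin (*Ocln*, -0.30) and the scaffold gene *Tjp1* (0.11), and the median was -0.02. *Ildr2* kept its call without each array in turn, whereas no gene of the list was higher in the ventral part without either dorsal array. Without ventral replicate 1, 8 genes of the list were higher dorsally and 5 ventrally, against 35.1% and 12.3% of all genes. Without ventral replicate 2, 1 was higher dorsally and 7 ventrally, against 4.78% and 6.21% of all genes.

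Among 13 tested genes of desmosomes and hemidesmosomes, to which keratin filaments attach, the desmosomal cadherin genes *Dsc2* (-1.42) and *Dsg2* (-0.74) were higher in the ventral part. *Dsc2* had values of 7.45 and 7.34 dorsally, against 8.87 and 8.77 ventrally, and passed without each array in turn, while *Dsg2* did not pass without either dorsal array. The other 11 did not pass, with desmoplakin (*Dsp*) at -0.50 (adjusted p = 0.0694). Of 11 other intermediate filament genes, the neurofilament genes *Nefm* (3.33) and *Nefl* (1.45) and the muscle gene *Des* (0.73) were higher in the dorsal part, and *Vim*, the vimentin gene of mesenchyme, differed by -0.07 (adjusted p = 0.880). Of the foregut fate factors, *Sox2* (0.57) was higher in the dorsal part and *Shh* (-2.66), *Irx2* (-1.66) and *Trp63* (-0.79) in the ventral part. *Nkx2-1*, the respiratory marker, had values of 5.10 and 5.03 dorsally, against 5.09 and 5.25 ventrally, which overlapped. All 4 were low, above the 40th percentile of their array but under its median (5.42 to 5.47). Without either dorsal array the calls of *Sox2*, *Trp63* and *Des* were lost.

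**Figure D5:**
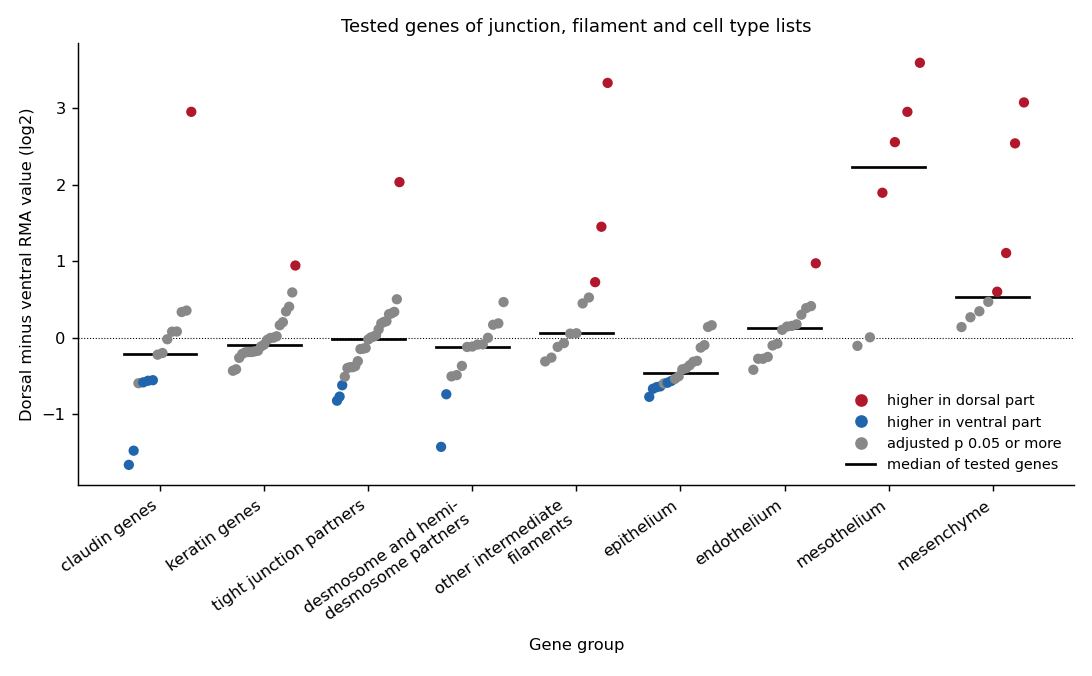
Dorsal minus ventral difference of the RMA value (log2, vertical axis) of each tested gene in the claudin and keratin families and in lists of partner genes and cell types, 1 point per gene, with a bar at the median. Red genes were higher in the dorsal part, blue genes higher in the ventral part and grey genes had an adjusted p of 0.05 or more. Among the groups plotted, the medians run from -0.46 for epithelium to 2.23 for mesothelium, and the heart muscle, hepatic, notochord, neural crest and fate factor lists are not plotted.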

How the data were processed

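RNA from 2 dorsal and 2 ventral samples was hybridised to Affymetrix mouse arrays, from 100 ng of total RNA labelled in a pair of cycles. The authors deposited RMA values, a method that the submitters' processing notes name, and their range is that of log2 values. For its software and version, the sources used here give nothing. The annotation of the platform at GEO, which may be outdated, gave 1 symbol to 34958 of 45101 probe sets. Genes above the 40th percentile of 2 or more arrays were compared (R 4.3.3, limma 3.58.1, lmFit followed by eBayes, two-sided), with Benjamini-Hochberg adjustment over 13139 genes. The test was checked on simulated arrays, drawn with the same spread for both parts. In the data the ventral replicates differed more than the dorsal ones (0.265 against 0.0764), which this check does not cover. On the simulated arrays the test recovered 26% of 50 genes with a true difference of 0.5 and 98% of 50 genes with a true difference of 1. Lists were described by counts and medians, without a test of the list. Members and lists were chosen with earlier results of these data known. Every tested member was named. Array values were given for members that passed, for those without overlap that differed by over 0.5, for main members of each family, and for *Krt20*, *Cldn1* and some partner genes after their values were seen. Of each other list, up to 5 genes with the largest passing differences and fixed markers were named, and 1 more epithelial gene that passed. Alternatives were other filters (none or the 60th percentile), quantile normalization or equal medians, other choices of probe set, trend or robust eBayes, a replicate block, other thresholds, other percentiles for the levels, and omission of each array. The number of arrays limits the precision.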

Additional observations from a re-analysis of the deposited data

How the results depend on the processing

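None of the 7 called genes changed sign in any alternative. Of these 7 called genes, *Cldn8* and *Cldn9* kept their call in all 15 alternatives and *Cldn11* in the 13 in which it was tested. Over all members and alternatives, 428 results kept their direction and their side of the threshold, 15 lost the call, 29 gained it and 26 changed sign without passing. The changes of sign were in 13 genes that did not pass with all arrays. With one array left out, *Cldn12* ran from -0.10 to 0.062, *Cldn15* ran from -0.093 to 0.26, *Cldn22* ran from -0.43 to 0.031, *Krt18* ran from -0.26 to 0.0898, *Krt42* ran from -0.20 to 0.21, *Krt5* ran from -0.24 to 0.020, *Krt7* ran from -0.12 to 0.16, *Krt71* ran from -0.50 to 0.083, *Krt73* ran from -0.12 to 0.12, *Krt77* ran from -0.086 to 0.50, *Krt78* ran from -0.41 to 0.045, *Krt81* ran from -0.52 to 0.17 and *Krt83* ran from -0.22 to 0.17. *Krt71* and *Krt78* passed without ventral replicate 1 and *Krt77* without ventral replicate 2, each with the opposite sign to its value without the other ventral array. With quantile normalization once more *Krt42* was at -0.11, *Krt7* at -0.080 and *Krt73* at 0.016. With array medians set equal *Krt42* was at -0.0016. With the mean of all probe sets *Krt42* was at -0.12 and *Cldn12* at 0.032, and *Cldn12* was at 0.081 without probe sets matching several transcripts. Of 5 members higher in the ventral part, 2 passed without a filter (against 2.59% of all genes) and 2 at an adjusted p under 0.01 (2.91%). With one array left out, 0 to 7 members were higher in the dorsal part and 2 to 9 in the ventral part, and over all genes the counts were 247 to 4544 and 276 to 1593. The highest counts came without ventral replicate 1, where the median of all tested genes was 0.18 in place of 0.07, and the cause was not tested. With quantile normalization once more, 479 genes were higher dorsally and 635 ventrally, against 629 and 538 as deposited. With the 30th percentile 16 members were under it on every array, and with the 50th percentile 20 were above it on all.

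The replicate numbers were not treated as pairs. The labels call them biological replicates but do not say whether a dorsal and a ventral sample of the same number belong together. Over tested genes the difference between dorsal replicates 1 and 2 correlated with that between ventral replicates 1 and 2 at 0.136. With a replicate block, 790 genes were higher dorsally and 678 ventrally, and 3 and 6 members, with *Krt19* and *Cldn6* added.

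In a fit to each probe set separately, 2 of 42 tested member probe sets were higher dorsally and 3 ventrally, against 3.28% and 2.56% of all 23336. The dorsal ones were those of *Cldn11* and *Krt15*, and the ventral ones belonged to *Cldn8* and *Cldn9* alone. *Cldn4* (limma adjusted p = 0.0944), *Cldn7* (0.0877) and *Cldn18* (0.0680) did not pass in that fit. When 1 array is left out, only the other part has replicates to estimate the spread, which the lone array is assumed to share.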

Other observations

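Genes related to the keratins and claudins but named outside the numbered series were measured too. *Krt6a*, a stress-induced keratin, had values of 5.18 and 5.29 dorsally, against 5.39 and 5.87 ventrally, a difference of -0.40 (limma adjusted p = 0.235), and the hair keratin *Krt33b* differed by -0.25 (adjusted p = 0.582). *Krt6b* and *Krt33a* were under the 40th percentile on every array. A probe set shared by *Krt17* and *Krt14* had values of 4.97 and 4.91 dorsally, against 5.01 and 5.10 ventrally, all above the 40th percentile, while the separate probe sets of both genes were under it. Among 38 genes of keratin-associated proteins of hair, 32 were under that percentile on every array, 5 were tested and none passed. The claudin-like gene *Cldnd1* differed by -0.06 (adjusted p = 0.892).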
